A study of Schmidtea mediterranea with 40 samples.

Results

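The comparison described here asked which transcripts changed differently between wounds labelled 24 and 48 hours post amputation (hpa) once *activin-2* had been inhibited. It is the interaction of RNAi and labelled time, that is, the log2 change of libraries labelled 48 over libraries labelled 24 in *activin-2* RNAi animals minus the same change in control RNAi animals. The comparison uses 12 of the 40 libraries of the series, chosen by their labels alone, with 3 libraries in each of 4 groups: *activin-2* RNAi labelled 24, *activin-2* RNAi labelled 48, control RNAi labelled 24 and control RNAi labelled 48. All 12 came from posterior-facing wounds of post-pharyngeal fragments of the planarian *Schmidtea mediterranea*, strain CIW4. Animals of both arms were given 4 feedings of dsRNA within 14 days, and amputation followed 7 days after the last one, with dsRNA against *activin-2* in one arm and against *unc-22*, a *Caenorhabditis elegans* gene, in the other. Fed dsRNA acts in the whole animal, so that the inhibition is not limited to 1 cell type, and each library pooled wounds of several animals. The times on these labels may be exchanged, and they are therefore called labelled 24 and labelled 48 throughout. An exchange of 24 with 48 in both arms would only turn the sign of every interaction given here. An exchange with another time of the series would change which times are compared.

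Activins are secreted ligands of the TGF-β superfamily, which signal through receptor kinases and Smad transcription factors. Planarians hold positional information along the head-to-tail axis in position control genes, which are expressed in regional domains, mostly in muscle. Several Wnt ligands and a Frizzled receptor mark the trunk and tail. Secreted Frizzled-related proteins, a Wnt2 ligand, *notum* and several genes of the *nou-darake* family mark more anterior regions. Proteins of this family resemble FGF receptors without a kinase. Another of its genes, *ndl-3*, is counted by the study among trunk genes, as is *wntP-2*. Whether the contigs annotated Smed-NDK-3 below belong to *ndl-3* was not checked. After amputation, a set of wound-induced genes is switched on within hours at any wound, and the regional domains are then rebuilt according to whether a head or a tail is to form.

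Inhibition of *activin-2* was visible in the counts of its own transcript. Contig dd_Smed_v6_3324_0_1, annotated as Activin, had 3.85, 4.26 and 2.18 CPM in *activin-2* RNAi libraries labelled 24 and 4.66, 5.15 and 2.87 CPM in those labelled 48, against 55.5, 51.1 and 54.5 CPM in control RNAi libraries labelled 24 and 44.6, 40.7 and 43.9 CPM in those labelled 48. CPM is a contig's read count scaled to a common library size, with library sizes set by the TMM method. The arms did not overlap at either labelled time, so that no library went against its RNAi label.

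Between 9325870 and 12993745 reads were counted per library, except for *activin-2* RNAi labelled 48 replicate 3 with 2524235, in which 1 read is worth 0.396 CPM. The *activin-2* RNAi libraries labelled 48 were the least alike of the 4 groups, with a lowest correlation of log2 CPM of 0.964 between replicates 2 and 3. Summed over annotated markers, neoblast contigs took 5902 to 6601 CPM, neural contigs 8320 to 10795 CPM, muscle contigs 66721 to 93865 CPM and gut contigs 102782 to 131089 CPM in all 12 libraries. The 4 pharynx markers were uneven, with 17.0 to 151 CPM in *activin-2* RNAi labelled 24, 3.90 to 113 CPM in *activin-2* RNAi labelled 48, 12.1 to 79.8 CPM in control RNAi labelled 24 and 0.671 to 1.56 CPM in control RNAi labelled 48. None of the 4 pharynx markers was called for the interaction, their median log2 interaction was 4.85, and the part of pharynx tissue in the results below was not tested. The libraries hold whole wound tissue, so that fewer cells of a type and less RNA per cell cannot be told apart.

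The interaction was called for 238 of 16694 contigs tested, or 1.43% (edgeR quasi-likelihood test, Benjamini-Hochberg adjusted p under 0.05), and 2457 contigs had an unadjusted p under 0.05. It was positive for 151 contigs, 0.905% of those tested, and negative for 87, 0.521%. A positive interaction means that the value labelled 48, relative to that labelled 24, was higher in *activin-2* RNAi than in control RNAi animals. The response to labelled time was itself called for 544 contigs in *activin-2* RNAi animals (3.26%) and for 1453 in control RNAi animals (8.7%). Without *activin-2* RNAi labelled 48 replicate 2 these counts were 2027 and 2021. The gap between the arms in number of calls was therefore not seen without that library. Of all contigs tested, 2.46% were higher and 0.797% lower labelled 48 in *activin-2* RNAi animals, and 4.85% were higher and 3.86% lower in control RNAi animals. The 2 responses come from separate libraries, and across all contigs tested their Pearson r was 0.12, given as a description since contigs are not replicates. Leaving out *activin-2* RNAi labelled 48 replicate 2 raised the interaction count to 1348, while leaving out *activin-2* RNAi labelled 24 replicate 2 or 3, control RNAi labelled 24 replicate 2, or control RNAi labelled 48 replicate 2 or 3 lowered it to 138, 149, 117, 143 and 129. Leaving out any of the other 6 libraries gave 164 to 244.

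Most of these contigs were called for labelled time in control RNAi animals and not in *activin-2* RNAi animals. Among the 151 positive contigs the median log2 change of labelled 48 over 24 was 0.29 in *activin-2* RNAi and -1.03 in control RNAi animals, and among the 87 negative contigs it was -0.28 and 0.66, against -0.0028 and -4.3e-05 over all contigs tested. Of the positive contigs, 130 were not called in *activin-2* RNAi and were lower labelled 48 in control RNAi animals, 13 were higher labelled 48 in *activin-2* RNAi and not called in control RNAi, 6 moved in opposite directions and 2 were called in neither arm. Of the negative contigs, 57 were not called in *activin-2* RNAi and were higher labelled 48 in control RNAi animals, 16 were lower labelled 48 in *activin-2* RNAi and not called in control RNAi, 3 moved in opposite directions, 4 were higher in both arms and 7 were called in neither. A call in one arm and none in the other was not read as a difference, which rests on the interaction test alone.

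Read the other way, as a difference between the arms at each labelled time, 113 of the positive contigs were lower in *activin-2* RNAi than in control RNAi animals in libraries labelled 24 and not called in those labelled 48. A further 19 were called only in libraries labelled 48, where they were higher in *activin-2* RNAi animals. Of the negative contigs, 42 were higher in *activin-2* RNAi animals in libraries labelled 24 alone and 32 were lower in libraries labelled 48 alone. Over all contigs, the arms differed for 1574 in libraries labelled 24 (9.43%) and for 825 in those labelled 48 (4.94%). In libraries labelled 24, 3.11% of all contigs were higher and 6.31% lower in *activin-2* RNAi than in control RNAi animals, and in libraries labelled 48 1.48% were higher and 3.46% lower.

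The 3 control RNAi libraries labelled 24 stood apart from the others for most of these contigs. All 3 lay above all 9 other libraries of the comparison in 115 of the 151 positive contigs (76.2%), against 4.61% of all contigs tested, and below them in 34 of the 87 negative contigs (39.1%), against 3.39%. They also lay above all 37 other libraries of the series, which include wounds at 0, 6 and 18 hpa, in 104 positive contigs (68.9%), against 3.16%, and below them in 20 negative ones (23%), against 1.7%. The other groups stood apart less often in the positive set, with *activin-2* RNAi labelled 24 lowest in 35 contigs (23.2%, against 2.22%), control RNAi labelled 48 lowest in 26 (17.2%, against 1.99%) and *activin-2* RNAi labelled 48 highest in 5 (against 2.26%). In the negative set control RNAi labelled 48 was highest in 27 contigs (31%, against 3.04%), *activin-2* RNAi labelled 48 lowest in 12 (13.8%, against 1.74%) and *activin-2* RNAi labelled 24 highest in 6 (against 2.08%). The interaction uses the same libraries, so these counts describe which group carries it and are not a further test. No interaction can be computed without the control RNAi libraries labelled 24. A difference in how this group alone was cut or collected would enter the interaction and cannot be told apart from it here. Such a difference was not tested. The positive contigs with these libraries on top numbered 72 without control RNAi labelled 24 replicate 2 and 196 without *activin-2* RNAi labelled 48 replicate 2, and 80 to 120 without any other library.

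**Figure D1:**
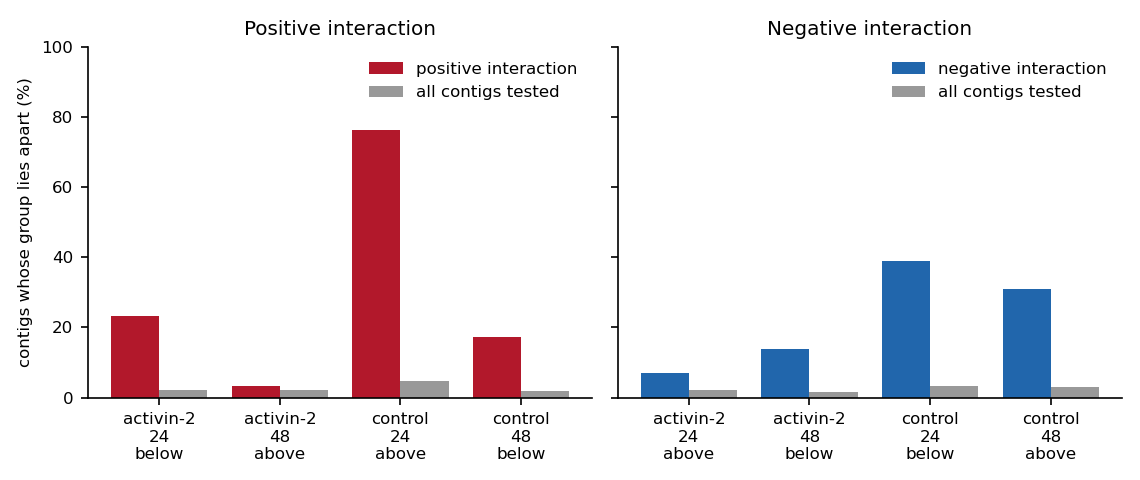
Percentage of the contigs with a positive (left) and a negative (right) interaction in which all 3 libraries of the named group lay above or below the other 9, beside the same percentage over all 16694 contigs tested in grey. The highest bars are those of control RNAi labelled 24, at 76.2% and 39.1%.

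Genes of the *nou-darake* family held some of the largest positive values among contigs with a gene name. Smed-NDK-3 contig dd_Smed_v6_8340_0_1 had 3.03, 1.71 and 1.70 CPM in *activin-2* RNAi labelled 24 and 1.52, 10.01 and 2.05 CPM in *activin-2* RNAi labelled 48, against 27.7, 35.2 and 34.5 CPM in control RNAi labelled 24 and 0.234, 0.288 and 0.778 CPM in control RNAi labelled 48. Only the control RNAi libraries labelled 24 were high, and the log2 interaction was 7.61 ± 0.775 (SE, adjusted p = 4.4e-05). The other contig of that annotation, dd_Smed_v6_6604_0_1, had 18.1, 17.0 and 16.0 CPM in *activin-2* RNAi labelled 24 and 19.0, 31.9 and 18.9 CPM labelled 48, against 56.3, 61.6 and 57.4 CPM in control RNAi labelled 24 and 9.30, 10.8 and 8.07 CPM labelled 48. Nou darake like-5, dd_Smed_v6_5102_0_1, had 31.5, 23.6 and 23.6 CPM in *activin-2* RNAi labelled 24 and 27.9, 50.6 and 20.9 CPM labelled 48, against 88.7, 101 and 104 CPM in control RNAi labelled 24 and 19.6, 17.9 and 19.3 CPM labelled 48. Both had the control RNAi libraries labelled 24 above all others without overlap, with log2 interactions of 3.15 ± 0.236 (adjusted p = 2.68e-06) and 2.81 ± 0.292 (adjusted p = 5.32e-05). In libraries labelled 48 the 2 Smed-NDK-3 contigs were higher in *activin-2* RNAi than in control RNAi animals, with log2 differences of 3.70 ± 0.684 and 1.37 ± 0.178 (adjusted p of 0.00571 and 0.000527).

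All 7 contigs of the *nou-darake* family were tested, 3 were called positive and none negative, and their median log2 interaction was 1.89, against -0.0023 over all contigs. This list was defined after values had been seen. Reads may be split between members with similar sequences, which was not checked. The 4 members that were not called were 3 Smed-NDK-4 contigs and 1 Smed-NDK contig, with log2 interactions of 0.55 to 1.89 (adjusted p of 0.0985 to 0.148). Each was highest on average in control RNAi libraries labelled 24, and Smed-NDK, dd_Smed_v6_11285_0_1, averaged 4.14 CPM in *activin-2* RNAi labelled 24 and 3.30 labelled 48, against 8.47 in control RNAi labelled 24 and 2.16 labelled 48. Between 3 and 4 members were called under every alternative, including each library left out in turn.

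Among the Wnt ligands, 1 was called positive and 2 negative. Contig dd_Smed_v6_13487_0_1, annotated as a Wnt protein with human WNT2B as its closest match, had 3.03, 2.18 and 1.94 CPM in *activin-2* RNAi labelled 24 and 3.47, 4.44 and 3.69 CPM labelled 48, against 13.3, 13.9 and 15.6 CPM in control RNAi labelled 24 and 1.41, 0.959 and 1.75 CPM labelled 48. Again the control RNAi libraries labelled 24 were the only high ones, with a log2 interaction of 4.10 ± 0.32 (adjusted p = 2.69e-06).

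The 2 negative ligands had the reverse arrangement. *wntP-2*, dd_Smed_v6_7326_0_1, a ligand of the trunk and tail, had 27.2, 35.6 and 26.6 CPM in *activin-2* RNAi labelled 24 and 20.4, 20.5 and 15.6 CPM labelled 48, against 13.9, 12.9 and 14.5 CPM in control RNAi labelled 24 and 30.1, 34.4 and 32.5 CPM labelled 48. It fell by 0.61 ± 0.128 on the log2 scale in *activin-2* RNAi libraries labelled 48 relative to those labelled 24 (adjusted p = 0.0163) and was 1.23 ± 0.127 higher labelled 48 in control RNAi animals (adjusted p = 1.47e-05), with no overlap between the labelled times in either arm. Its log2 interaction was -1.84 ± 0.18 (adjusted p = 3.08e-05). *wnt11-1*, dd_Smed_v6_14391_0_1, a ligand of the tail, had 8.68, 10.7 and 7.83 CPM in *activin-2* RNAi labelled 24 and 10.7, 7.58 and 12.7 CPM labelled 48, against 6.89, 1.07 and 1.196 CPM in control RNAi labelled 24 and 24.9, 17.0 and 21.8 CPM labelled 48. The *activin-2* RNAi libraries overlapped between the labelled times and the control RNAi ones did not, with replicate 1 labelled 24 well above the other two of its group. The log2 interaction of *wnt11-1* was -2.80 ± 0.568 (adjusted p = 0.0204). The call was lost with DESeq2 and without *activin-2* RNAi labelled 24 replicate 2, control RNAi labelled 24 replicate 2, or control RNAi labelled 48 replicate 1 or 3. The adjusted p was 0.107 with DESeq2 and up to 0.067 over the left-out libraries.

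*wnt1*, dd_Smed_v6_28398_0_1 and annotated as wntP-1, the ligand of the posterior pole that is also induced at wounds, averaged 0.344 CPM in *activin-2* RNAi labelled 24 and 0.95 CPM labelled 48, against 0.194 CPM in control RNAi labelled 24 and 2.13 CPM labelled 48. These levels are near those of a few reads, and the interaction was not called (log2 -1.66 ± 0.793, adjusted p = 0.347). A contig with human WNT4 as its closest match, dd_Smed_v6_16209_0_1, had a log2 interaction of -2.83 that was not called either (adjusted p = 0.0897). It was called at -5.29 without control RNAi labelled 24 replicate 1 and at -2.40 without *activin-2* RNAi labelled 48 replicate 2 (adjusted p = 0.00035 and 0.0424). It was also called without a filter, in the fit of 40 libraries and with a replicate block (0.00527, 0.00302 and 0.0488). The contig averaged 6.07 and 7.52 CPM in *activin-2* RNAi labelled 24 and 48, against 1.46 and 10.8 CPM in control RNAi labelled 24 and 48. The Wnt proteins matching WNT5B and the ligand wntP-3 had log2 interactions of -0.21 and -0.13 (adjusted p = 0.751 and 0.902).

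Frizzled receptors, which bind Wnt ligands, were called in both directions. The contigs closest to human FZD10, FZD9 and again FZD10, dd_Smed_v6_16926_0_1, dd_Smed_v6_13186_0_1 and dd_Smed_v6_11650_0_1, were negative with log2 interactions of -1.78 ± 0.238, -1.75 ± 0.368 and -1.62 ± 0.375 (adjusted p = 0.000897, 0.0245 and 0.0416). The first of them had 7.78, 6.63 and 7.18 CPM in *activin-2* RNAi labelled 24 and 5.10, 5.01 and 6.56 CPM labelled 48, against 3.22, 2.62 and 3.42 CPM in control RNAi labelled 24 and 8.60, 7.29 and 7.39 CPM labelled 48. All 3 had the control RNAi libraries labelled 24 below every other library. The contigs closest to FZD5 and FZD4, dd_Smed_v6_16571_0_1 and dd_Smed_v6_7210_0_1, were positive with 1.36 ± 0.285 and 1.03 ± 0.17 (adjusted p = 0.0244 and 0.00443), and both had the control RNAi libraries labelled 24 above every other library. For dd_Smed_v6_7210_0_1 these were 33.8, 32.4 and 34.4 CPM, against 14.5 to 21.2 CPM in the other 9 libraries. The contigs dd_Smed_v6_13186_0_1, dd_Smed_v6_11650_0_1 and dd_Smed_v6_16571_0_1 lost their call without *activin-2* RNAi labelled 24 replicate 2, control RNAi labelled 24 replicate 2, or control RNAi labelled 48 replicate 1 or 3. The first of these 3 also lost it without *activin-2* RNAi labelled 24 replicate 1, control RNAi labelled 24 replicate 3 or control RNAi labelled 48 replicate 2, the second without those and *activin-2* RNAi labelled 24 or 48 replicate 3, and the third without *activin-2* RNAi labelled 24 replicate 3 or control RNAi labelled 24 replicate 1. Their adjusted p was up to 0.0966, 0.147 and 0.0868 over the left-out libraries, and dd_Smed_v6_11650_0_1 was not called with DESeq2 (adjusted p = 0.108).

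Of the secreted inhibitors, both called Frizzled-related proteins were positive, with different arrangements. sFRP2, dd_Smed_v6_8832_0_1, had 11.5, 13.3 and 11.6 CPM in *activin-2* RNAi labelled 24 and 10.2, 13.7 and 13.1 CPM labelled 48, against 39.6, 41.3 and 36.6 CPM in control RNAi labelled 24 and 11.3, 11.03 and 12.3 CPM labelled 48. Once more 1 group alone was high, with a log2 interaction of 1.78 ± 0.173 (adjusted p = 3.05e-05). sfrp1, dd_Smed_v6_13985_0_1, an inhibitor expressed at the head tip, had 1.88, 1.33 and 0.484 CPM in *activin-2* RNAi labelled 24 and 6.83, 10.2 and 4.51 CPM labelled 48, against 4.14, 4.86 and 5.64 CPM in control RNAi labelled 24 and 4.45, 5.08 and 5.44 CPM labelled 48. Here the *activin-2* RNAi libraries labelled 24 were the low ones, and the control RNAi libraries overlapped between the labelled times. The log2 change of sfrp1 was 2.68 ± 0.336 in *activin-2* RNAi (adjusted p = 0.000281) and 0.02 ± 0.284 in control RNAi animals (adjusted p = 0.983), which gave an interaction of 2.66 ± 0.445 (adjusted p = 0.00459). Another Frizzled-related contig, sFRP3, and the Wnt-deacylating inhibitor *notum*, dd_Smed_v6_24180_0_1, had log2 interactions of -0.29 and -0.19 that were not called (adjusted p = 0.43 and 0.88). *notum* averaged 1.27 and 1.66 CPM in *activin-2* RNAi labelled 24 and 48, against 1.199 and 1.797 CPM in control RNAi labelled 24 and 48.

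Wntless, annotated as Evi/Wls, carries Wnt proteins to the cell surface and was higher labelled 48 in both arms. Contig dd_Smed_v6_9546_0_1 had 27.7, 26.9 and 22.6 CPM in *activin-2* RNAi labelled 24 and 43.6, 47.1 and 47.6 CPM labelled 48, against 18.5, 15.7 and 15.6 CPM in control RNAi labelled 24 and 52.6, 53.5 and 46.8 CPM labelled 48. The rise was 0.84 ± 0.102 on the log2 scale in *activin-2* RNAi and 1.62 ± 0.103 in control RNAi animals, an interaction of -0.79 ± 0.145 (adjusted p = 0.00962). The other contig of that annotation, dd_Smed_v6_11629_0_1, averaged 7.47 and 13.01 CPM in *activin-2* RNAi labelled 24 and 48, against 4.17 and 13.36 CPM in control RNAi labelled 24 and 48. Its interaction of -0.99 ± 0.324 was not called (adjusted p = 0.169) except in the fit of 40 libraries (0.0483). Of 34 tested members of the Wnt pathway list, 5 were called positive and 6 negative, beside 0.905% and 0.521% of all contigs, and the median was -0.16. The list was fixed on the annotation, with earlier results of these data known. The 23 members not called include β-catenin-1, the main transcriptional effector, with a log2 interaction of -0.01, both Dishevelled contigs and the contigs of axin and APC, which belong to the complex that degrades β-catenin. Between 7 and 17 members were called over the alternatives, with 7 without *activin-2* RNAi labelled 24 replicate 2, without control RNAi labelled 24 replicate 2 and without control RNAi labelled 48 replicate 1 or 3, and 17 without *activin-2* RNAi labelled 48 replicate 2.

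**Figure D2:**
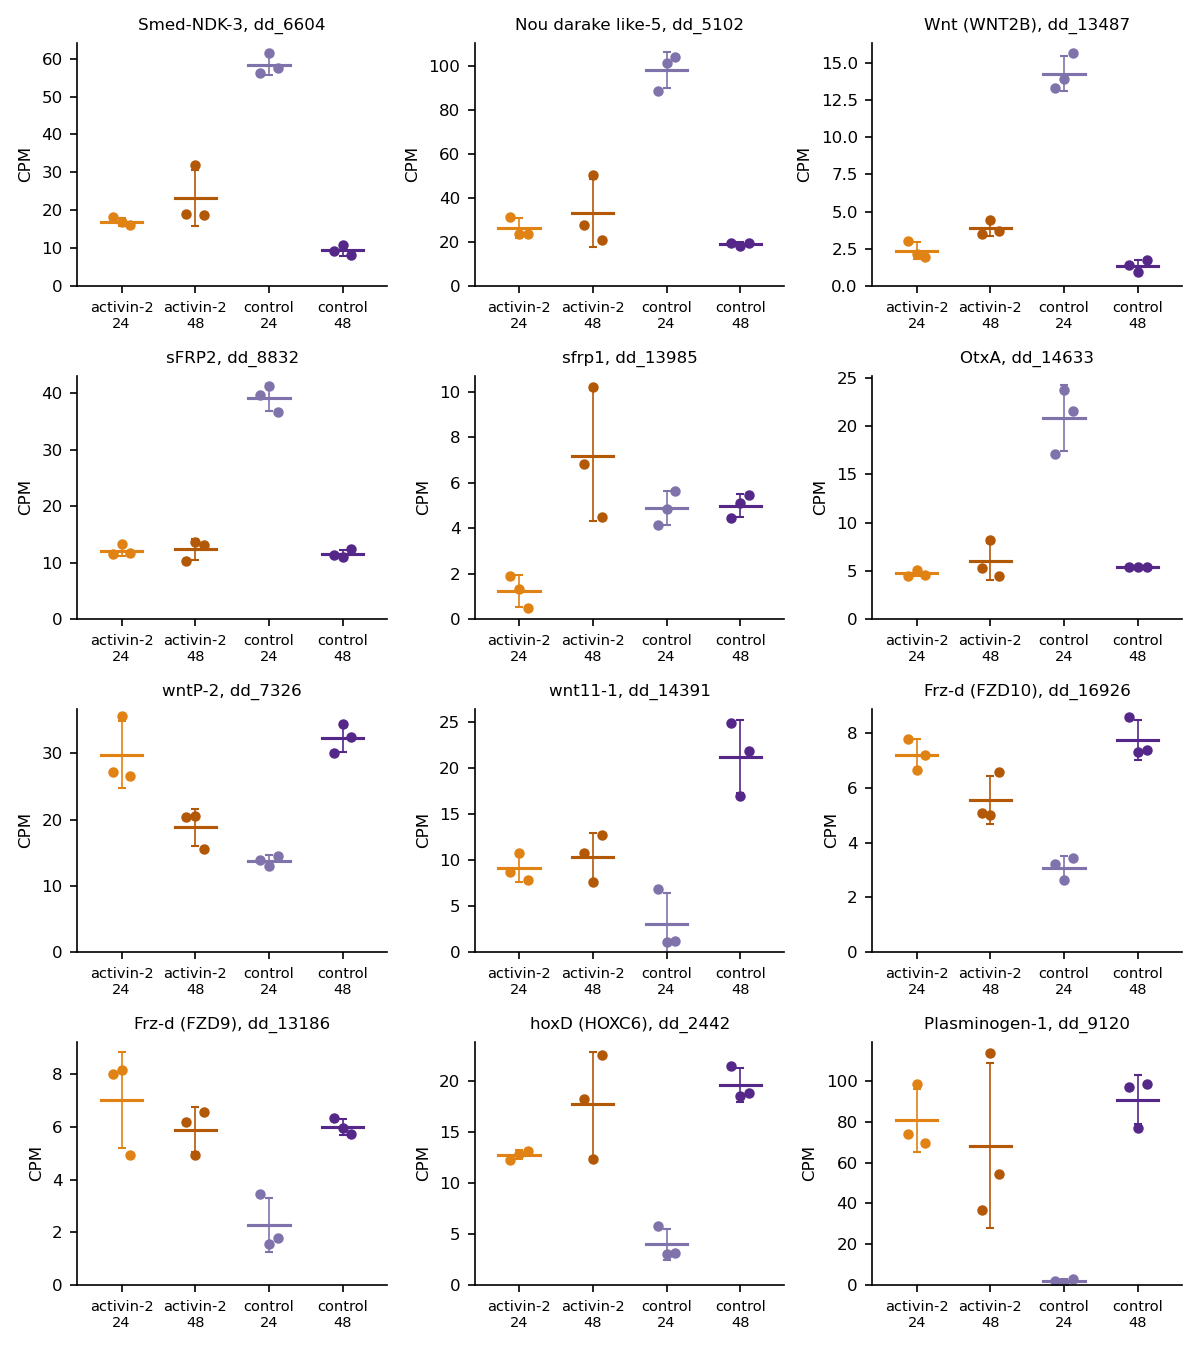
CPM in each of the 12 libraries (points) with the mean and SD of 3 libraries (line and bar) for 12 contigs, by RNAi arm and labelled hpa. In the first 2 rows the control RNAi group labelled 24 is the highest, except for sfrp1, where *activin-2* RNAi labelled 24 is the lowest, and in the last 2 rows it is the lowest.

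Of 112 tested homeobox, forkhead and SOX contigs, 3 were positive and 2 negative (2.68% and 1.79%), beside 0.905% and 0.521% of all contigs. hoxD, dd_Smed_v6_2442_0_1, a Hox gene annotated to muscle, had 12.3, 12.8 and 13.2 CPM in *activin-2* RNAi labelled 24 and 18.2, 12.3 and 22.6 CPM labelled 48, against 5.74, 3.01 and 3.16 CPM in control RNAi labelled 24 and 21.5, 18.5 and 18.8 CPM labelled 48. The control RNAi libraries labelled 24 were the lowest of all 40, and the log2 interaction was -1.96 ± 0.302 (adjusted p = 0.00249). The contig closest to human MEOX1, dd_Smed_v6_12317_0_1, a homeobox gene annotated to muscle, was negative too, with averages of 18.65 and 15.1 CPM in *activin-2* RNAi labelled 24 and 48, against 8.72 and 21.65 CPM in control RNAi labelled 24 and 48 (log2 interaction -1.69 ± 0.263, adjusted p = 0.00262). OtxA, dd_Smed_v6_14633_0_1, of a homeobox family expressed in the head and brain of many animals, had 4.50, 5.12 and 4.60 CPM in *activin-2* RNAi labelled 24 and 5.31, 8.15 and 4.51 CPM labelled 48, against 17.1, 23.8 and 21.6 CPM in control RNAi labelled 24 and 5.39, 5.37 and 5.35 CPM labelled 48. OtxA was positive at 2.42 ± 0.266 (adjusted p = 0.000109). Another positive contig, dd_Smed_v6_25769_0_1, matched human PDX1, at 4.72 ± 0.771 (adjusted p = 0.00399). It averaged 0.411 and 0.647 CPM in *activin-2* RNAi labelled 24 and 48, against 5.53 and 0.420 CPM in control RNAi labelled 24 and 48. Its low groups held only 15, 23 and 14 reads in that order, on which the fitted value depends.

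**Figure D3:**
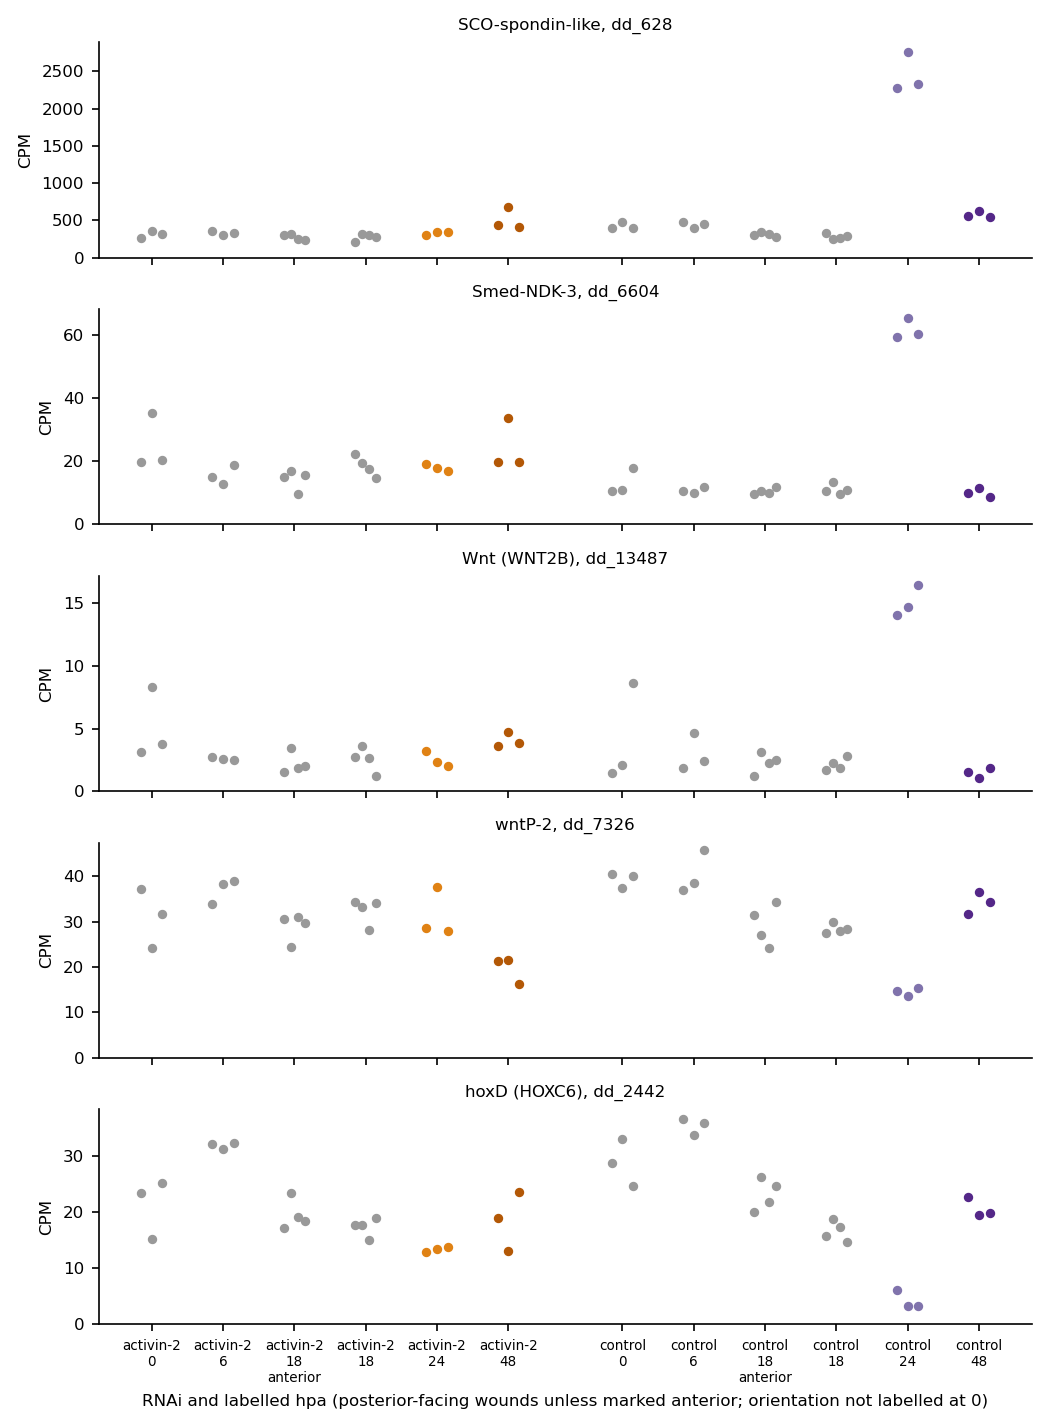
CPM of 5 called contigs in all 40 libraries of the series, scaled over the 40, by RNAi arm, labelled hpa and wound orientation, with the 12 libraries of the comparison in colour. The control RNAi libraries labelled 24 lie above the other 37 libraries for SCO-spondin-like, Smed-NDK-3 and Wnt (WNT2B) and below them for *wntP-2* and hoxD.

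The largest called values belonged to transcripts nearly absent from 3 of the 4 groups, apart from *activin-2* RNAi labelled 48 replicate 2. There dd_Smed_v6_13594_0_1 and dd_Smed_v6_9223_0_1 had 8.37 and 7.94 CPM, above the 6.20 and 3.79 CPM of control RNAi labelled 24 replicate 1. Cerebral peptide prohormone like-1, dd_Smed_v6_4046_0_1, a precursor of a neuropeptide, had 0 reads in all 3 libraries of *activin-2* RNAi labelled 24 and 0, 1.36 and 0 CPM in those labelled 48, against 6.78, 10.97 and 11.7 CPM in control RNAi labelled 24 and 0, 0 and 0.0972 CPM labelled 48. Secreted peptide prohormone 8, dd_Smed_v6_3845_0_1, had 0.164, 0 and 0.161 CPM in *activin-2* RNAi labelled 24 and 0, 1.43 and 0 CPM labelled 48, against 7.35, 8.06 and 8.12 CPM in control RNAi labelled 24 and 0.0782, 0 and 0 CPM labelled 48. Outside control RNAi labelled 24, *activin-2* RNAi labelled 48 replicate 2 was the only one of the 12 libraries in which either reached 1 CPM. Both reached 3.15 CPM among the other 37 libraries of the series, as scaled over the 40. Without that library neither call held (adjusted p = 1 and 0.97), nor did those of the unannotated contigs dd_Smed_v6_13594_0_1, dd_Smed_v6_7340_0_1, dd_Smed_v6_9223_0_1 and dd_Smed_v6_5811_0_1, whose highest CPM outside control RNAi labelled 24 stood in the same library. The unannotated dd_Smed_v6_18464_0_1 had a log2 interaction of 5.83 (adjusted p = 0.0209), and of 2.77 without that library (adjusted p = 0.361). Its call was also lost without *activin-2* RNAi labelled 24 replicate 2, control RNAi labelled 24 replicate 2, or control RNAi labelled 48 replicate 1 or 3 (adjusted p of up to 0.0627). The fitted values of such contigs depend on the few reads of their low groups.

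Of 30 tested neuropeptide prohormones, 5 were called positive (16.7%, beside 0.905% of all contigs) and none negative, with a median log2 interaction of 0.46. The calls of dd_Smed_v6_4046_0_1 and dd_Smed_v6_3845_0_1, which are 2 of these 5, were lost without *activin-2* RNAi labelled 48 replicate 2. The summed level of the 30 tested prohormones was 206 to 215 CPM in *activin-2* RNAi labelled 24 and 225 to 253 CPM labelled 48, against 355 to 389 CPM in control RNAi labelled 24 and 287 to 307 CPM labelled 48. The list was defined after values had been seen, and the neural-annotated contigs, fixed on the annotation, held 7 positive (2.63%) and no negative calls among 266 tested (median 0.13). Neuropeptide-2, dd_Smed_v6_1015_0_1, had 24.7, 20.5 and 21.1 CPM in *activin-2* RNAi labelled 24 and 25.3, 27.3 and 27.9 CPM labelled 48, against 43.5, 51.9 and 40.5 CPM in control RNAi labelled 24 and 29.6, 28.3 and 27.99 CPM labelled 48. This difference was smaller, with control RNAi labelled 24 again above all others, and had a log2 interaction of 0.93 ± 0.151 (adjusted p = 0.00373).

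A contig resembling SCO-spondin, dd_Smed_v6_628_0_1, a large secreted glycoprotein known in vertebrates from the brain, had 289, 329 and 325 CPM in *activin-2* RNAi labelled 24 and 425, 644 and 389 CPM labelled 48, against 2153, 2600 and 2218 CPM in control RNAi labelled 24 and 528, 587 and 523 CPM labelled 48. The deposited annotation places this contig in muscle of unclear type, in a cluster with genes seen before in low quality libraries. Its level labelled 48 was higher in *activin-2* RNAi animals (log2 change 0.64 ± 0.15, adjusted p = 0.0313) and lower in control RNAi animals (interaction 2.73 ± 0.214, adjusted p = 2.69e-06). The contig closest to fibrillin 2, dd_Smed_v6_2649_0_1, a protein of extracellular microfibrils, had 178, 157 and 171 CPM in *activin-2* RNAi labelled 24 and 194, 236 and 213 CPM labelled 48, against 552, 617 and 730 CPM in control RNAi labelled 24 and 193, 212 and 185 CPM labelled 48. Its log2 interaction was 2.04 ± 0.153 (adjusted p = 2.68e-06), and that of the contig closest to nidogen 2, dd_Smed_v6_1330_0_1, a basement membrane protein, was 1.01 ± 0.1 (adjusted p = 3.26e-05). These were the 2 called members, both positive, of 64 tested contigs for extracellular matrix and its remodelling (3.12%, beside 0.905% of all contigs). Serine protease inhibitor-1, dd_Smed_v6_57_0_1, averaged 6.73 and 9.47 CPM in *activin-2* RNAi labelled 24 and 48, against 113 and 22.6 CPM in control RNAi labelled 24 and 48 (log2 interaction 2.80 ± 0.593, adjusted p = 0.0255). It was not called with DESeq2, nor without *activin-2* RNAi labelled 24 replicate 3, *activin-2* RNAi labelled 48 replicate 2 or 3, control RNAi labelled 24 replicate 1 or 2, or control RNAi labelled 48 replicate 1 or 2 (adjusted p of up to 0.0768).

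Enzymes that start O-linked glycosylation of secreted proteins, the polypeptide GalNAc transferases, held 6 positive (46.2%, beside 0.905% of all contigs) and no negative calls among 13 tested, with a median log2 interaction of 0.97. All 3 control RNAi libraries labelled 24 were above the other 9 in 8 of the 13, beside 4.61% of all contigs. One of them, dd_Smed_v6_5242_0_1, had 39.96, 24.5 and 26.9 CPM in *activin-2* RNAi labelled 24 and 33.2, 47.6 and 35.7 CPM labelled 48, against 121, 173 and 140 CPM in control RNAi labelled 24 and 39.5, 56.9 and 52.0 CPM labelled 48. Proteases closest to human kallikrein-related peptidase 13 were positive in 4 of 4 contigs (median 1.25, beside 0.905% of all contigs positive), and here control RNAi libraries labelled 48 were the low ones. One of them, dd_Smed_v6_66_0_1, had 1621, 1440 and 1742 CPM in *activin-2* RNAi labelled 24 and 1598, 1852 and 2063 CPM labelled 48, against 1713, 2117 and 1805 CPM in control RNAi labelled 24 and 751, 1024 and 1077 CPM labelled 48. In 2 of the 4 contigs, dd_Smed_v6_3728_0_1 and dd_Smed_v6_4570_0_1, all 3 control RNAi libraries labelled 24 also lay above the other 9, beside 4.61% of all contigs. Both lists were defined after values had been seen. Reads may be shared between members with similar sequences, which was not checked.

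The unannotated contigs dd_Smed_v6_566_0_1 and dd_Smed_v6_240_0_1 also had high levels in that group alone. The first had 13.6, 6.25 and 11.4 CPM in *activin-2* RNAi labelled 24 and 8.89, 75.1 and 6.97 CPM labelled 48, against 1390, 1011 and 686 CPM in control RNAi labelled 24 and 26.3, 20.9 and 18.6 CPM labelled 48. The second had 1.14 to 2.87 CPM in *activin-2* RNAi labelled 24 and 2.49 to 6.58 CPM labelled 48, against 93.0 to 132 CPM in control RNAi labelled 24 and 4.30 to 9.62 CPM labelled 48. Their log2 interactions were 7.29 ± 0.818 and 5.50 ± 0.543 (adjusted p = 0.000126 and 3.26e-05).

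The most negative value belonged to Plasminogen-1, dd_Smed_v6_9120_1_1. It had 74.3, 98.5 and 69.6 CPM in *activin-2* RNAi labelled 24 and 36.6, 114 and 54.5 CPM labelled 48, against 2.07, 1.07 and 2.99 CPM in control RNAi labelled 24 and 97.1, 77.1 and 98.5 CPM labelled 48. Control RNAi labelled 24 was the only low group of the 12 libraries, and the log2 interaction was -5.63 ± 0.522 (adjusted p = 2.01e-05). Over all 40 libraries this contig was between 1.13 and 3.15 CPM in control RNAi labelled 24 and between 1.29 and 209.6 CPM in the other 37, so that low values were not limited to this group. Further negative contigs were the transcription factors Klf, dd_Smed_v6_3638_0_1, and Sp6-9, dd_Smed_v6_7824_0_1, at -1.15 ± 0.235 and -1.28 ± 0.275 (adjusted p = 0.0208 and 0.027), and the contig closest to beta-lactamase-like LACTB, dd_Smed_v6_7272_0_1, at -1.49 ± 0.312 (adjusted p = 0.0244). Each of these 3 lost its call without *activin-2* RNAi labelled 24 replicate 3, control RNAi labelled 24 replicate 2, or control RNAi labelled 48 replicate 1 or 3, and Klf and Sp6-9 lost it without control RNAi labelled 48 replicate 2 as well. Sp6-9 also lost it without *activin-2* RNAi labelled 24 replicate 1 or control RNAi labelled 24 replicate 3, and LACTB without *activin-2* RNAi labelled 48 replicate 1. The adjusted p was up to 0.0613, 0.101 and 0.0858 for the 3 contigs in the order given.

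A smaller set of contigs was called both for the interaction and for its response within *activin-2* RNAi animals. Both tests come from 1 fit of the 12 libraries, with shared scaling and spread. Of these 42 contigs 19 had a positive interaction and were higher labelled 48, 19 had a negative one and were lower labelled 48, and 4 rose in both arms. The contigs named in this paragraph were chosen after their values were seen. The contig closest to WDHD1, dd_Smed_v6_10217_0_1, whose human match binds DNA during replication, averaged 16.6 CPM in *activin-2* RNAi labelled 24 and 37.2 CPM labelled 48, against 23.7 CPM in control RNAi labelled 24 and 29.0 CPM labelled 48 (interaction 0.85, adjusted p = 0.0065). MCM5, dd_Smed_v6_6734_0_1, a subunit of the replicative helicase annotated to neoblasts, averaged 52.0 and 69.8 CPM in *activin-2* RNAi labelled 24 and 48, against 60.4 and 54.1 CPM in control RNAi labelled 24 and 48 (interaction 0.57, adjusted p = 0.0281). Both were lowest on average in *activin-2* RNAi labelled 24. MCM5 kept its call without *activin-2* RNAi labelled 24 replicate 3, control RNAi labelled 24 replicate 3, *activin-2* RNAi labelled 48 replicate 2 or control RNAi labelled 48 replicate 1, but without no other library (adjusted p of up to 0.101). A Patched-like protein, dd_Smed_v6_7063_0_1, of the family of Hedgehog receptors, averaged 45.0 and 63.0 CPM in *activin-2* RNAi labelled 24 and 48, against 68.0 and 55.97 CPM in control RNAi labelled 24 and 48 (interaction 0.74, adjusted p = 0.00553). Among those lower labelled 48 in *activin-2* RNAi animals, besides *wntP-2*, the contig closest to the transporter SLC26A5, dd_Smed_v6_10602_0_1, had 19.7, 21.9 and 20.4 CPM labelled 24 and 12.9, 12.2 and 7.38 CPM labelled 48, against 21.1, 15.6 and 16.0 CPM in control RNAi labelled 24 and 20.9, 21.7 and 21.1 CPM labelled 48 (interaction -1.10 ± 0.203, adjusted p = 0.0097).

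Of the 126 tested contigs in the study's list of wound-induced genes, 63 (50%) were called for labelled time in both arms, against 1.55% of all contigs. Of the 126, 68 were higher and none lower labelled 48 in *activin-2* RNAi animals, and 90 were higher and 3 lower in control RNAi animals, beside 2.46% and 4.85% of all contigs higher. The study put this list together from wound-induced genes given in earlier reports. The counts are a description without a set test, since its members are not replicates. Their summed level was 5872 to 6094 CPM in *activin-2* RNAi labelled 24 and 10005 to 11664 CPM labelled 48, against 5400 to 5525 CPM in control RNAi labelled 24 and 12107 to 12377 CPM labelled 48. The median log2 change was 0.70 in *activin-2* RNAi and 0.79 in control RNAi animals, and the median interaction was -0.10. The interaction was called for 8 of the 126 (6.35%, against 1.43% of all contigs), 2 positive, one of them sfrp1, and 6 negative. One of the negative contigs, the unannotated dd_Smed_v6_1531_0_1, had 140, 149 and 145 CPM in *activin-2* RNAi labelled 24 and 143, 124 and 143 CPM labelled 48, against 48.2, 48.1 and 48.2 CPM in control RNAi labelled 24 and 77.9, 88.1 and 74.9 CPM labelled 48. It was higher labelled 48 in control RNAi animals (log2 change 0.74 ± 0.0839). The log2 change of -0.09 ± 0.0812 in *activin-2* RNAi animals did not pass the test (adjusted p = 0.601), and the log2 interaction was -0.83 ± 0.117 (adjusted p = 0.00114). A second, dd_Smed_v6_5786_0_1, closest to human SBSPON, a protein with somatomedin B and thrombospondin domains, averaged 31.2 and 35.9 CPM in *activin-2* RNAi labelled 24 and 48, against 15.8 and 32.1 CPM in control RNAi labelled 24 and 48 (log2 interaction -0.83 ± 0.163, adjusted p = 0.0169). That call was lost without *activin-2* RNAi labelled 24 replicate 2 or 3 (adjusted p = 0.0548 and 0.0527), control RNAi labelled 24 replicate 2 (0.0528) or control RNAi labelled 48 replicate 1 (0.0579), and in the fit of all 40 libraries (0.102).

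Single genes of this list differed in their arrangement. *fos-1*, dd_Smed_v6_2789_0_1, an immediate early transcription factor, had 94.7, 71.4 and 72.4 CPM in *activin-2* RNAi labelled 24 and 203, 192 and 192 CPM labelled 48, against 86.6, 78.6 and 75.6 CPM in control RNAi labelled 24 and 216, 199 and 171 CPM labelled 48, with a log2 interaction of 0.01 ± 0.157 (adjusted p = 0.987). *nlg-1*, dd_Smed_v6_14068_0_1, a noggin-like secreted protein, had 2.38, 1.71 and 1.94 CPM in *activin-2* RNAi labelled 24 and 10.4, 9.30 and 9.43 CPM labelled 48, against 4.48, 2.72 and 2.65 CPM in control RNAi labelled 24 and 17.7, 15.3 and 12.9 CPM labelled 48 (0.02 ± 0.269, adjusted p = 0.992). Both rose in libraries labelled 48 of both arms without overlap between the labelled times. *runt-1*, dd_Smed_v6_16222_0_1, a transcription factor induced early after wounding, had 0.737, 0.474 and 0.323 CPM in *activin-2* RNAi labelled 24 and 23.4, 40.1 and 28.7 CPM labelled 48, against 0.345, 0.874 and 0.598 CPM in control RNAi labelled 24 and 13.1, 13.7 and 11.7 CPM labelled 48. Its log2 interaction of 1.55 ± 0.572 was not called (adjusted p = 0.226). EGR-like protein 1, dd_Smed_v6_7731_0_1, went the other way in control RNAi animals, with 23.9, 13.45 and 13.2 CPM in *activin-2* RNAi labelled 24 and 34.0, 22.8 and 13.5 CPM labelled 48, against 34.7, 23.1 and 20.2 CPM in control RNAi labelled 24 and 15.8, 11.4 and 12.6 CPM labelled 48. It was lower labelled 48 in control RNAi animals (log2 change -0.95 ± 0.275, adjusted p = 0.0427). The log2 change was 0.57 ± 0.276 in *activin-2* RNAi animals (adjusted p = 0.289). The interaction of 1.52 ± 0.39 was not called (adjusted p = 0.0762). It was called without a filter (0.00678) and with a replicate block (0.000721). It was also called without *activin-2* RNAi labelled 24 replicate 1 or *activin-2* RNAi labelled 48 replicate 2 or 3 (0.0177, 0.0249 and 0.0395). Early growth response-2, dd_Smed_v6_9273_0_1, averaged 5.02 and 52.2 CPM in *activin-2* RNAi labelled 24 and 48, against 3.91 and 66.7 CPM in control RNAi labelled 24 and 48 (log2 interaction -0.70 ± 0.194, adjusted p = 0.101). It was called only without *activin-2* RNAi labelled 48 replicate 2 (adjusted p = 0.0217). Fascin-1 and *hadrian* had log2 interactions of -0.13 and -0.15 (adjusted p = 0.764 and 0.881). Whether these early genes are higher labelled 48 because the time labels are exchanged was not tested.

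No member of the TGF-β and Activin pathway was called for the interaction among 36 tested, with a median of 0.06. *activin-2* itself had a log2 interaction of 0.78 ± 0.247 (adjusted p = 0.158), and its contig was low at both labelled times in *activin-2* RNAi animals. *follistatin*, dd_Smed_v6_9584_0_1, a secreted inhibitor of Activin, had 13.7, 12.3 and 10.9 CPM in *activin-2* RNAi labelled 24 and 13.01, 12.9 and 14.4 CPM labelled 48, against 21.3, 20.9 and 20.9 CPM in control RNAi labelled 24 and 25.8, 20.6 and 19.2 CPM labelled 48. All *activin-2* RNAi libraries lay below all control RNAi libraries, and the interaction was not called (0.04 ± 0.18, adjusted p = 0.987). *inhibin-1*, dd_Smed_v6_7607_0_1, a wound-induced ligand of the same superfamily, had an interaction of -0.76 ± 0.307 (adjusted p = 0.265) and the Activin receptor contig dd_Smed_v6_3426_0_1 one of 0.05 ± 0.114 (adjusted p = 0.872).

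Among 839 muscle-annotated contigs 16 were positive and 12 negative (1.91% and 1.43%), among 373 neoblast-annotated contigs 8 and 2 (2.14% and 0.536%), and among 821 gut-annotated contigs 3 and 3 (0.365% each), beside 0.905% and 0.521% of all contigs. Their median log2 interactions were -0.0048, 0.0575 and -0.0403. *smedwi-1*, dd_Smed_v6_659_0_1, the piwi gene that marks neoblasts, and the muscle factor *myoD*, dd_Smed_v6_12634_0_1, were not called (0.07 ± 0.121 and 0.09 ± 0.223, adjusted p = 0.841 and 0.894). No contig was called in the lists of heat shock proteins and chaperones, cytosolic ribosomal proteins, the respiratory chain, DNA replication and cell cycle, histones, the proteasome, cilia, muscle contractile proteins, lysosomal enzymes, piwi, Tudor and DEAD-box genes, or retrotransposon-like contigs, which had 17 to 155 tested members. The list for DNA replication and cell cycle does not hold the contigs of WDHD1 and MCM5, which were called as given above, so it does not cover all replication genes. Among 25 immediate early transcription factors 1 was positive and 1 negative, the positive one being Early GF3, dd_Smed_v6_12410_0_1, closest to EGR1, with 2.95 ± 0.531 (adjusted p = 0.00838). It averaged 3.56 and 3.67 CPM in *activin-2* RNAi labelled 24 and 48, against 6.36 and 0.835 CPM in control RNAi labelled 24 and 48. No contig of the deposited annotation is assigned to epidermis, and that list could not be counted. The filamin-like contig dd_Smed_v6_5496_0_1 was not called (0.86 ± 1.72, adjusted p = 0.863). Its value rests on control RNAi labelled 24 replicate 3, which had 38.8 CPM against 1.26 and 0.874 CPM in the other two of its group. Without that library it was -2.87 (adjusted p = 0.0248).

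**Figure D4:**
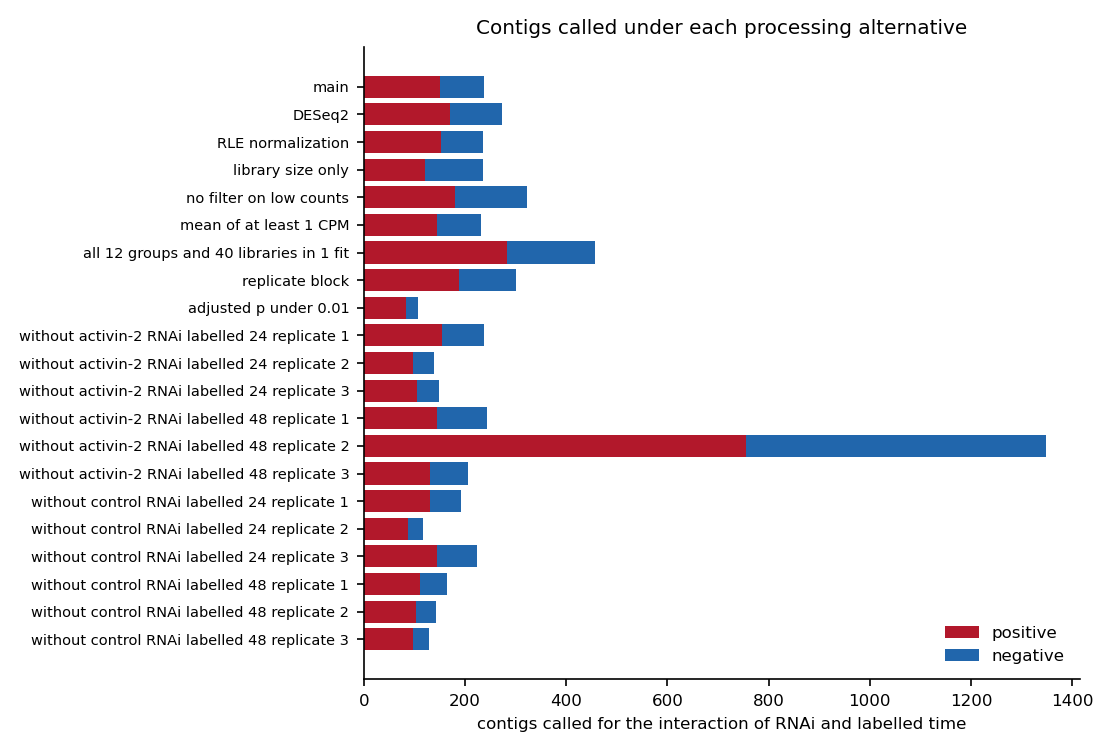
Number of contigs called for the interaction, positive in red and negative in blue, under each processing alternative and without each library in turn. The count is 238 as reported, 106 at an adjusted p under 0.01, and 1348 without *activin-2* RNAi labelled 48 replicate 2.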

How the data were processed

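Poly(A) RNA was sequenced from stranded libraries, and the authors deposited 1 table of raw read counts per contig for 28742 contigs of the dd_Smed_v6 transcriptome, in which isotig counts were summed without normalization. The submitters' processing notes name CASAVA 1.9, cutadapt 1.8, Bowtie 1.2, SAMtools 1.6 and DESeq. The authors' deposited table of comparisons holds log2 fold changes and adjusted p-values, which were not used, and contig annotations, which were. Counts gathered by transcript can split reads between near copies.

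Counts of 12 libraries in 4 groups of 3 entered a quasi-likelihood fit of edgeR 4.0.16 under R 4.3.3, after TMM scaling and the filterByExpr filter (at least 10 reads, and 15 in total), with the default prior count, with Benjamini-Hochberg adjustment over all 16694 contigs tested and a limit of 0.05. The standard error is the log2 value divided by the square root of F. The labels do not say whether replicates came from separate cultures, so that p-values measure the spread between these libraries. No library was a copy of another (chi-square per contig of 4.23 to 22.4 within groups). The fit was tested on simulated data with known changes.

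Named contigs were the 12 most positive and 12 most negative called contigs with a mean of at least 1 CPM, the 10 most positive and most negative described ones, fixed genes of the study, and up to 4 called members of each list. Other named contigs were chosen after their values were seen, and *foxD* was not paired with a contig. Some named contigs are not reported here. The comparison, its lists and these rules were chosen with earlier results of these data known. The *nou-darake*, GalNAc transferase, prohormone and kallikrein lists were drawn up once values had been seen. Alternatives were DESeq2 1.42.0, RLE and library-size scaling, 2 other filters, 1 fit of all 40 libraries, a replicate block, a limit of 0.01, and each library left out in turn. Where that leaves 2 libraries in a group, the spread is pooled over all groups.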

Additional observations from a re-analysis of the deposited data

Results flagged for a closer look

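By the test of the difference itself (edgeR, adjusted p under 0.05), the change between labelled times was not the same in the 2 arms for 151 contigs with a positive and 87 with a negative interaction. The log2 interactions of the contigs named here, each past that test, were as follows, where dd_4046 stands for dd_Smed_v6_4046_0_1 and likewise for the others.

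Among contigs of secreted peptides and prohormones, the values were 13.79 for cerebral peptide prohormone like-1 dd_4046, 10.14 for secreted peptide prohormone 8 dd_3845 and 0.93 for neuropeptide-2 dd_1015. No read of dd_4046 was counted in *activin-2* RNAi labelled 24, so that its value depends on the prior count and is no bound.

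Among contigs with no description, the positive values were 10.99 for dd_13594, 10.89 for dd_7340, 10.51 for dd_9223, 10.09 for dd_5811, 7.29 for dd_566, 5.83 for dd_18464, 5.50 for dd_240, 4.75 for dd_4216, 1.08 for dd_11532 and 0.86 for dd_7293. The negative values were -0.83 for dd_1531, -1.72 for dd_13060, -1.88 for dd_5690, -2.03 for dd_4427, -2.08 for dd_13065 and -2.72 for dd_13919. Calls were lost under at least 1 alternative for dd_13594, dd_7340, dd_9223, dd_5811, dd_18464, dd_11532, dd_7293, dd_13060, dd_5690 and dd_13919.

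In the nou-darake and Wnt groups, positive values were 7.61 for Smed-NDK-3 dd_8340, 3.15 for Smed-NDK-3 dd_6604, 2.81 for nou darake like-5 dd_5102, 4.10 for Protein Wnt dd_13487, 2.66 for sfrp1 dd_13985, 1.78 for sFRP2 dd_8832, 1.36 for Frz-d dd_16571 and 1.03 for Frz-d dd_7210. Negative values were -0.79 for Evi/Wls dd_9546, -1.62 for Frz-d dd_11650, -1.75 for Frz-d dd_13186, -1.78 for Frz-d dd_16926, -1.84 for wntP-2 dd_7326 and -2.80 for wnt11-1 dd_14391.

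For contigs of transcription and replication factors, the values were 4.72 for PDX1 dd_25769, 2.95 for Early GF3 dd_12410, 2.42 for OtxA dd_14633, 1.84 for FERD3L dd_8096, 1.35 for ASCL4 dd_1854, 0.85 for WDHD1 dd_10217, 0.57 for MCM5 dd_6734, -1.15 for Klf dd_3638, -1.28 for Sp6-9 dd_7824, -1.69 for MEOX1 dd_12317 and -1.96 for hoxD dd_2442.

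For contigs of matrix, protease and secretory pathway proteins, the positive values were 2.80 for serine protease inhibitor-1 dd_57, 2.73 for SSPO dd_628, 2.04 for FBN2 dd_2649, 1.01 for NID2 dd_1330, 3.98 for APP dd_1349, 1.18 for KLK13 dd_66, 1.84 for GALNT6 dd_8580, 1.92 for GALNT10 dd_5242, 1.36 for reticulocalbin-1 dd_801, 0.84 for LIPF dd_257 and 0.79 for PDIA5 dd_821. Negative values were -0.83 for SBSPON dd_5786 and -5.63 for plasminogen-1 dd_9120_1_1. The calls of APP, serine protease inhibitor-1 and SBSPON were lost under at least 1 alternative, that of APP under 10 of 20.

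For contigs of channels, transporters, receptors, signalling proteins and enzymes, positive values were 2.12 for KCNN2 dd_10277, 1.04 for GRIN2A dd_14850, 0.52 for GRIK3 dd_4267, 1.47 for TSPAN6 dd_2578, 0.74 for patched-like protein dd_7063, 0.65 for SLC12A8 dd_8108, 0.58 for SLC16A14 dd_1284 and 0.62 for AGPAT4 dd_4946. Negative values were -0.56 for TNF receptor-associated factor dd_3201, -0.63 for SHOC2 dd_2743, -0.63 for CYP1A1 dd_5307, -0.67 for SYTL5 dd_8909, -0.72 for GRIA1 dd_8728, -0.78 for MRPL20 dd_2225, -1.10 for SLC26A5 dd_10602 and -1.49 for LACTB dd_7272. Calls were lost under at least 1 alternative for GRIK3, SLC12A8, SLC16A14, AGPAT4, the TNF receptor-associated factor, SHOC2, CYP1A1, SYTL5, GRIA1 and LACTB. Of 20 alternatives, SLC16A14 lost its call under 12, GRIA1 under 11, and GRIK3 and the TNF receptor-associated factor under 10 each.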

How the results depend on the processing

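Of 238 contigs called for the interaction, 151 were positive and 87 negative. DESeq2 called 273, RLE scaling 236 and a minimum of 1 CPM 232. Scaling by library size alone called 235, 121 positive and 114 negative, or 51.5% positive against 63.4%, with a median over all contigs of -0.0858. Without a filter the negative count was 141. One fit of all 40 libraries called 457 for the interaction, 282 positive and 175 negative, with 1090 for time in *activin-2* RNAi, 1322 between arms labelled 48 and 2373 between arms labelled 24. At an adjusted p under 0.01 the interaction count was 106, 83 positive and 23 negative, with 177 for time in *activin-2* RNAi, 633 for time in control RNAi, 276 between arms labelled 48 and 749 between arms labelled 24. The Wnt list then held 7 called contigs.

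With single libraries left out, the interaction count ranged from 117 to 1348, the positive count from 87 to 756 and the negative count from 30 to 592. It was 138 and 149 without *activin-2* RNAi labelled 24 replicates 2 and 3, 1348 without *activin-2* RNAi labelled 48 replicate 2, 117 without control RNAi labelled 24 replicate 2, and 143 and 129 without control RNAi labelled 48 replicates 2 and 3. The count for time in *activin-2* RNAi ranged from 201 to 2027, that for time in control RNAi from 735 to 2021, that between arms labelled 48 from 326 to 1231 and that between arms labelled 24 from 826 to 2498. The counts that moved by over 1.5 times were, for time in *activin-2* RNAi, 201 and 210 without *activin-2* RNAi labelled 24 replicates 2 and 3, 2027 and 289 without *activin-2* RNAi labelled 48 replicates 2 and 3, 351 without control RNAi labelled 24 replicate 2 and 357 without control RNAi labelled 48 replicate 2. For time in control RNAi they were 952 and 735 without control RNAi labelled 24 replicates 1 and 2, and 737, 869 and 807 without control RNAi labelled 48 replicates 1, 2 and 3. Between arms labelled 48 they were 533, 326 and 347 without the same 3 libraries. Between arms labelled 24 they were 955 and 900 without *activin-2* RNAi labelled 24 replicates 2 and 3, 2498 without *activin-2* RNAi labelled 48 replicate 2, and 943 and 826 without control RNAi labelled 24 replicates 1 and 2. The log2 interaction of dd_Smed_v6_5496_0_1, 0.86 and not called, ranged from -2.87 without control RNAi labelled 24 replicate 3 to 1.44 without control RNAi labelled 48 replicate 3. The cause was not tested.

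A replicate block called 301 contigs for the interaction. Over 18 same-numbered pairs the correlation of deviations ran from -0.224 to 0.217, with 6 over 0.1. Differently numbered pairs were not set beside them, so whether the numbers pair the libraries was not decided. Of 74 named contigs called, 41 were called under every alternative run, 33 were lost under at least 1 and 0 reversed. Of 25 named contigs not called, 6 were called under at least 1. Where a group had few or no reads, a fitted value depends on the prior count.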
